A study of Hydra vulgaris with 40 samples.

Results

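The head region of *H. vulgaris* buds was compared between stage 8 and the stages just before it. The comparison used 6 of the 40 samples of the series, namely 2 samples of stage 8 against 4 samples of stages 6 and 7 (2 of each), and all of the 17438 listed genes that were above 0 in at least 2 of these 6 samples. This left 17436 genes. All samples are untreated polyps or pieces of them, fed on brine shrimp larvae and starved before the tissue was taken, and no strain or age is given in the labels. Bud samples are the cut-off head end of buds at stages 1, 3, 4, 5, 6, 7, 8 and 10, and the number of buds in a sample is not given. The adult body map holds the foot, the budding zone, the body column, the hypostome and the tentacles, and the regeneration course holds tissue of animals that lost their head between 0 and 48 h earlier, in 7 steps (1 animal per sample, and the labels and the methods differ on which piece was taken). Every condition has 2 samples, which the study's methods describe as biological replicates. Values are on the scale of TPM (the number of a gene's transcripts scaled to a fixed total) after batch removal and normalization by the authors, and depth is unknown since read counts were not used here.

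*Hydra* buds asexually. A bud grows out of the lower body column of its parent, forms a head at its free end and a foot at its base, and then detaches as a small polyp. The head has a hypostome, which is the mouth cone and carries the head organizer, and a ring of tentacles around it. Tentacles grow as body column cells are displaced into them. There the cells stop dividing, and ectodermal epithelial cells become battery cells that hold stinging cells (nematocytes) and sensory neurons. Adult tentacles, hypostome and trunk (body column, budding zone and foot) therefore give reference levels from samples that the bud comparison does not use. In tissue samples of this kind, fewer cells of a type and less RNA per cell cannot be told apart.

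Before the results, 2 properties of the 6 samples have to be given. First, the sample labelled stage 6 replicate 1 stood with stage 8. Its rank correlation across genes was 0.964 with stage 8 replicate 1 and 0.961 with stage 8 replicate 2. With stage 6 replicate 2 and with stage 7 replicates 1 and 2 it was 0.923, 0.939 and 0.901. The other 3 samples of stages 6 and 7 had correlations from 0.950 to 0.956 with each other, and the stage 8 samples had 0.964. The main counts, classes and correlations are therefore given with and without this sample. It was singled out from these same values, as the earlier sample most like stage 8. Leaving it out therefore favours larger differences and more calls, and shares without overlap cannot fall when fewer samples have to be cleared. Values without it are a description and add no support. Second, both stage 8 samples have the same sorted list of values, and stage 6 replicate 1 shares its sorted values with stage 7 replicate 2, as stage 6 replicate 2 does with stage 7 replicate 1. Stages 6 and 7 were pooled, so an exchange of labels between these 2 stages would not change the main comparison. It would change the fits that use either stage alone or a mean per stage, and an exchange between stages 6 and 8 would change all of them. Whether labels were exchanged was not tested. As labelled, no gene passed the threshold between them (0 higher and 0 lower, 0%, at an adjusted limma p of 0.05), with 491 genes higher (2.82%) and 538 lower (3.09%) at stage 7 at an unadjusted p of 0.05. Summed values ran from 1005453 to 1012704 and genes listed at 0 from 219 to 271 per sample.

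At stage 8, many genes of the adult head lay above stages 6 and 7 together, but few single genes passed the test with all 6 samples. Of the small set that fell, 42.9% were in a class of genes high in the adult foot, which holds 2.3% of all genes. The test was a limma fit of log2(value + 1) with adjustment over all 17436 genes. At an adjusted p of 0.05, 1 gene rose (0.00574% of those tested) and 14 fell (0.0803%). At an unadjusted p of 0.05 there were 1146 higher genes (6.57%) and 483 lower genes (2.77%). Without stage 6 replicate 1, 169 genes rose (0.97%) and 120 fell (0.689%) out of 17429, and these included the 1 gene that rose and all 14 genes that fell with the 6 samples. Leaving out stage 6 replicate 2 or either stage 7 sample gave 0 or 1 gene higher and 8 lower each. Leaving out stage 8 replicate 1 gave 0 higher and 1 lower, and leaving out stage 8 replicate 2 gave 0 higher and 2 lower. Most calls were thus made only without the sample that stood apart.

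A second count needs no variance estimate. Both stage 8 samples lay above all 4 samples of stages 6 and 7 for 2346 genes (13.5%), and below all of them for 951 genes (5.45%). Without stage 6 replicate 1 these were 3713 (21.3%) and 2662 (15.3%). The excess of higher genes depended on the scaling of the samples. Of all genes without overlap, 71.2% were higher in the deposited values, 58.8% after median-ratio scaling and 44.6% after quantile normalization of the 6 samples to one distribution. The median change over all genes moved little with it, from 0.03 on the log2(value + 1) scale to -0.0019 and -0.04. The overall balance of higher and lower genes is therefore not read as a result, and each gene group below is set beside all genes.

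To relate the change to the adult body, genes were put into classes by their mean in the 5 adult tissues. A gene was called tentacle-high when its mean was at least 1 in tentacles and more than 2-fold above each of the 4 other tissues. Hypostome-high, foot-high, body-column-high and budding-zone-high genes were defined in the same way. Head-shared genes were more than 2-fold above all 3 trunk tissues in both tentacles and hypostome and in neither high class. Tentacle-low and hypostome-low genes were below 0.5 times the level of each other tissue. The deposited gene identifiers come without names, so functions cannot be given for most members.

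Genes of the adult head were higher at stage 8. Of the 2576 tentacle-high genes, 914 (35.5%) had both stage 8 samples above all samples of stages 6 and 7, against 13.5% of all genes, and 46 (1.79%) had both below. Their median change was 0.37 on the log2(value + 1) scale, with quartiles of 0.02 and 0.76, against 0.03 for all genes. Among the 470 hypostome-high genes, 110 (23.4%) were higher without overlap and 6 (1.28%) were lower, with a median change of 0.42. Among the 299 head-shared genes, 69 (23.1%) were higher and 4 (1.34%) lower, with a median of 0.43. The change was above 0 for 83.5%, 83.8% and 84.9% of these classes, and for 58.6% of all genes. The 3 head classes thus had nearly the same median change, while tentacle-high genes more often cleared all 4 earlier samples.

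**Figure D1:**
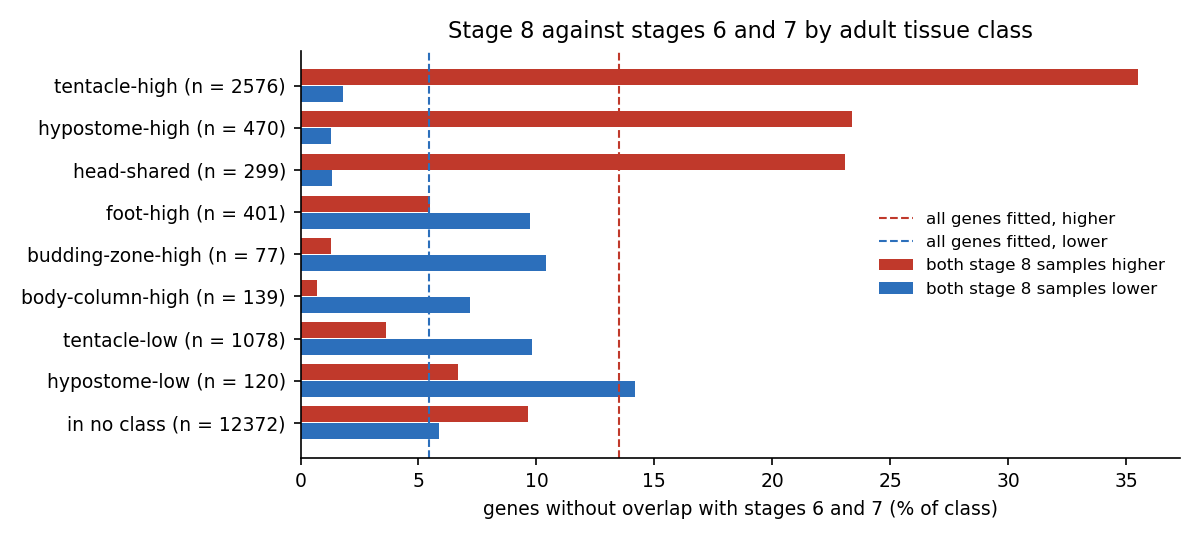
Share of each adult tissue class whose stage 8 samples both lay above (red) or both lay below (blue) all 4 samples of stages 6 and 7, in percent of the genes of the class, with the share over all genes fitted as dashed lines. The red bars of the 3 head classes, from 23.1% to 35.5%, pass the red line at 13.5%, and those of all other classes stay under it.

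Genes of the trunk tissues did not share this. Of 401 foot-high genes, 22 (5.49%) were higher without overlap and 39 (9.73%) were lower, and of 139 body-column-high genes 1 was higher (0.719%) and 10 were lower (7.19%). Of 77 budding-zone-high genes, 1 was higher (1.30%) and 8 were lower (10.4%). Their median changes were between -0.05 and 0.00. These classes lie at low values, where the 1 added before the log damps changes. Their median levels over the 6 samples were 1.7, 1.22 and 0.692 in the same order, against 6.35 for all genes. In genes with a mean of 10 or more the median changes were -0.005 (80 genes), 0.01 (19 genes) and -1.21 (4 genes). Tentacle-low genes, which every other adult tissue expresses, had lower values. Among 1078 of them the median change was -0.14, 106 (9.83%) were lower without overlap and 39 (3.62%) were higher. The 120 hypostome-low genes had 17 lower (14.2%) and 8 higher (6.67%). Lower shares are to be read against 5.45% of all genes. Genes in no class, which are 71.0% of those fitted, had 9.65% higher and 5.86% lower.

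The position of stage 6 replicate 1 was also seen in the genes of these classes. In deviations from each gene's mean over the 6 samples, the median of the tentacle-high genes was 0.04 in stage 6 replicate 1, -0.14 in stage 6 replicate 2, and -0.10 and -0.21 in the stage 7 samples. It was 0.26 and 0.24 in the stage 8 samples. For hypostome-high genes the same medians were 0.13, -0.15, -0.05 and -0.37, and then 0.30 and 0.26. For head-shared genes they were 0.12, -0.17, -0.07 and -0.32, and then 0.31 and 0.30. In each of these classes both stage 8 samples lay above the other 4, and stage 6 replicate 1 lay between them and the rest. Tentacle-low genes were different. Their median in stage 6 replicate 1, at -0.18, was below the -0.08 and -0.09 of stage 8, and the other 3 samples lay between 0.06 and 0.21, so the groups overlapped.

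Without stage 6 replicate 1, the median change was 0.41 for tentacle-high, 0.47 for hypostome-high, 0.55 for head-shared and -0.23 for tentacle-low genes. Higher genes without overlap were then 50.5%, 46.0% and 51.2% of the 3 head classes, against 21.3% of all genes, and lower genes were 39.1% of the tentacle-low class, against 15.3%. The difference between tentacle-high genes and the other head classes in that share was no longer seen. In this fit 131 tentacle-high genes passed the threshold upward (5.09% of the class, against 0.97% of all genes) and 1 downward. They made up 77.5% of the 169 genes that rose, while the class holds 14.8% of all genes. Only 10 of the hypostome-high genes (2.13%) and 3 of the head-shared genes (1.00%) passed upward. Of the 120 genes that fell, 94 were in no class (78.3%, against 71% of all genes) and 4 were tentacle-low (3.33%, against 6.18%). Foot-high genes were 9 (7.5%, against 2.3%), hypostome-low genes 7 (5.83%, against 0.688%) and budding-zone-high genes 6 (5%, against 0.442%).

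The amounts of RNA involved can be read from the share that a class took of each sample's summed values. Tentacle-high genes took 7.89% and 8.25% at stage 8. At stages 6 and 7 they took 7.36% in stage 6 replicate 1, 4.07% in stage 6 replicate 2, and 4.89% and 4.08% in the stage 7 samples. Both stage 8 samples were above all others by this measure too. Hypostome-high genes took 2.48% and 2.47% at stage 8 and 2.65%, 1.32%, 1.53% and 0.962% in the same order of earlier samples. Head-shared genes took 0.981% and 0.952% against 0.993%, 0.628%, 0.764% and 0.584%. In both of these classes stage 6 replicate 1 was above stage 8, so the groups overlapped in summed level although the median gene was higher at stage 8. In the adult, tentacle-high genes took 23.7% and 23.0% of tentacles and 3.03% and 3.15% of the body column, and hypostome-high genes took 6.65% and 7.05% of the hypostome. Since buds and adult tissues were normalized together, in steps that are not described per batch, these adult values are set beside the buds only as an orientation.

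**Figure D2:**
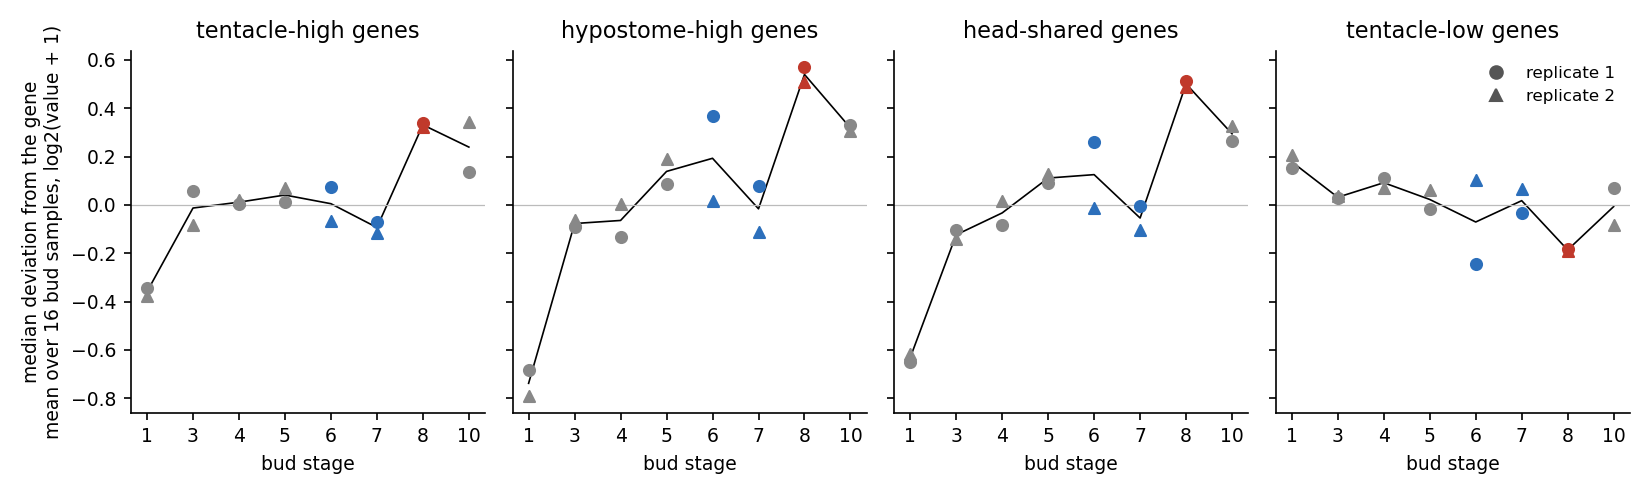
Median deviation of the genes of a class from each gene's mean over the 16 bud samples, on the log2(value + 1) scale, by bud stage, for replicate 1 (circles) and replicate 2 (triangles), with lines through the mean of both, stages 6 and 7 in blue and stage 8 in red. In the 3 head classes stage 1 is lowest and stage 8 has the highest mean, while stage 6 replicate 1 lies above the other blue points.

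Over the whole bud course the head classes were lowest at stage 1. On the scale of all 16 bud samples the tentacle-high median was -0.34 and -0.38 at stage 1. It lay between -0.12 and 0.08 in the 10 samples of stages 3 to 7. At stage 8 it was 0.34 and 0.32. At stage 10 it was 0.14 in replicate 1 and 0.34 in replicate 2, so the latest stage overlapped with stage 8 in one sample and was below it in the other. For hypostome-high genes the stage 8 medians of 0.57 and 0.51 were above all other bud samples, with 0.33 and 0.31 at stage 10 and 0.37 in stage 6 replicate 1. Head-shared genes had 0.52 and 0.49 at stage 8, and 0.26 and 0.33 at stage 10. In these last 2 classes both stage 10 samples were below both stage 8 samples.

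The same contrast was larger in genes with more signal, in part by construction. The 1 added before the log damps changes at low values. The level was the mean over the 6 samples, stage 8 included. A gene can therefore pass by being high at stage 8, which favours higher genes. A mean of 10 or more in the 6 samples was found for 7123 genes, of which 1117 (15.7%) were higher without overlap and 433 (6.08%) lower. Of the 766 tentacle-high genes among them, 396 (51.7%) were higher and 0 lower, and their median change was 0.67. Of 192 hypostome-high genes 61 (31.8%) were higher and 0 lower, with a median of 0.56, and of 119 head-shared genes 34 (28.6%) were higher and 0 lower, with a median of 0.50. Means at stage 8 were more than 2-fold above those of stages 6 and 7 for 255 of the 7123 genes. Of these, 189 were tentacle-high, 38 hypostome-high and 10 head-shared, and 16 were in no class. Means were more than 2-fold lower for 180 genes. Of these, 157 were in no class and 12 were tentacle-low (6.67%, against 8.23% of all genes of this level). Foot-high genes were 7 (3.89%, against 1.12%), hypostome-low genes 5 (2.78%, against 0.351%) and budding-zone-high genes 2 (1.11%, against 0.0562%). A gene can be in a low class and in a high class. No gene of the head classes was among the 180. Tentacle-high genes were thus 74.1% of the genes more than 2-fold higher, against 10.8% of all genes of this level, and genes in no class were 87.2% of those more than 2-fold lower, against 75.4%. A gene in no class can still differ between adult tissues, since genes high in several trunk tissues have no class here. When stage 6 replicate 1 was left out, 452 genes were more than 2-fold higher, of which 306 were tentacle-high, 58 hypostome-high and 31 head-shared, and 211 were more than 2-fold lower, of which 176 were in no class. Higher genes without overlap were then 76.9%, 61.5% and 68.9% of the 3 head classes, against 26.6% of all genes of this level.

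The relation to adult levels was also seen without classes. For each gene the adult difference was taken as tentacles minus the mean of the 3 trunk tissues, or hypostome minus the same trunk tissues, in a limma fit of log2(value + 1) over the 10 body map samples. In this fit 6266 genes (36%) were higher and 4785 (27.5%) lower in tentacles than in trunk, and 3910 (22.5%) were higher and 2132 (12.2%) lower in hypostome than in trunk (2333 and 1421 without hypostome replicate 2, and 2604 higher without replicate 1). Across 17407 genes the stage 8 change correlated with the tentacle difference with Pearson's r = 0.514 and Spearman's rho = 0.545, and with the hypostome difference with r = 0.452 and rho = 0.423. Genes are not independent replicates, so these are descriptions. Both adult differences share the trunk samples and correlated with each other (r = 0.584, rho = 0.532). Without stage 6 replicate 1 the values of rho were 0.568 and 0.433. In the 7122 of these genes whose mean over the 6 samples, stage 8 included, was 10 or more they were 0.677 and 0.583.

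**Figure D3:**
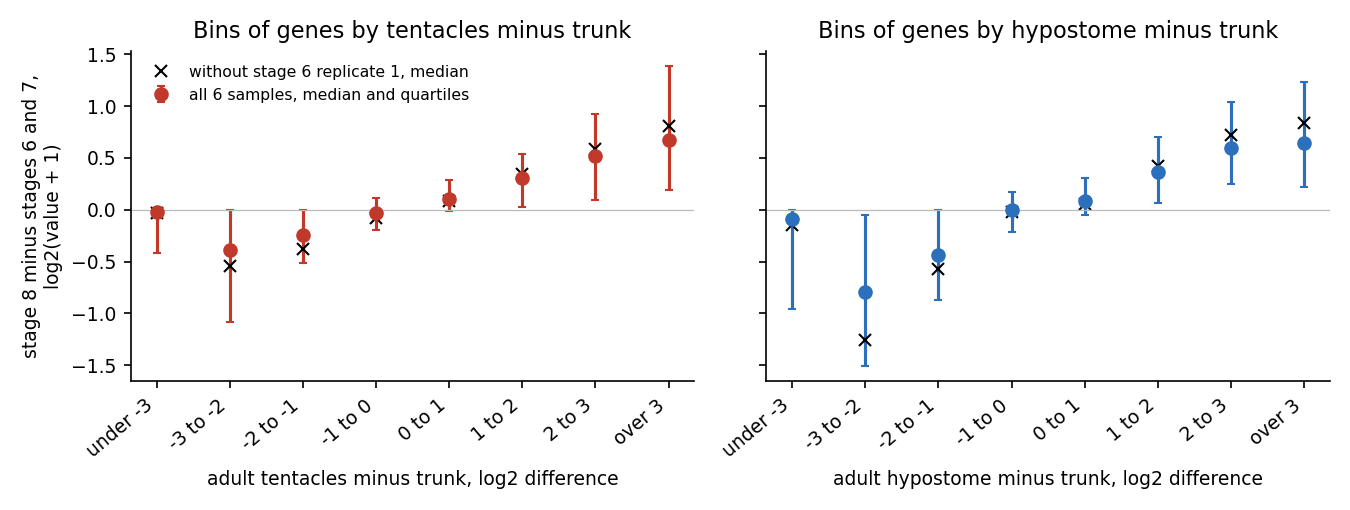
Median change from stages 6 and 7 to stage 8, on the log2(value + 1) scale, in bins of genes by their adult difference of tentacles (left) or hypostome (right) from trunk, with bars from the lower to the upper quartile and crosses for the median without stage 6 replicate 1. Medians run from -0.39 in the bin of -3 to -2 up to 0.67 in the bin over 3 for tentacles, and from -0.80 to 0.65 for hypostome, while the lowest bin is near 0 in both panels.

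The change increased with the adult difference over most of its range. Genes with a tentacle difference above 3 (624 genes) had a median change of 0.67, and 50.8% of them were higher without overlap. The medians were 0.52 for differences of 2 to 3, 0.30 for 1 to 2, 0.10 for 0 to 1 and -0.03 for -1 to 0. On the other side, the 460 genes with a difference of -3 to -2 had a median of -0.39, and 20.9% of them were lower without overlap. For the hypostome the 220 genes above 3 had a median of 0.65, with 41.4% higher without overlap, and the 243 genes of -3 to -2 had a median of -0.80, with 27.6% lower. In the bins below -3 the medians were near 0, at -0.02 for tentacles and -0.09 for hypostome, while 16.4% and 23.2% of their genes were lower without overlap, against 5.45% of all genes. The medians moved further down without stage 6 replicate 1, to values of -1.26 in the hypostome bin of -3 to -2, -0.54 in the tentacle bin of -3 to -2 and -0.08 in the tentacle bin of -1 to 0. In the bins below -3 they were then -0.03 for tentacles and -0.15 for hypostome. The bins above 3 then had medians of 0.80 for tentacles and 0.84 for hypostome.

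Genes were also grouped by their calls in both adult head tissues. Genes higher than trunk in both adult head tissues (2748) had a median change of 0.35, and 34.8% of them were higher without overlap. Genes higher in tentacles alone, with no call in hypostome (3335), had a median of 0.18 and 22.3%. Genes higher in hypostome alone (714) had 0.12 and 14%, which is near the 13.5% of all genes. The 448 genes that were higher in hypostome but lower in tentacles had 0.08 and 11.4%. Genes lower than trunk in both (1724) had a median of -0.32, and 21.3% of them were lower without overlap. Genes with no call in either (5417) had a median of 0.01, with 6.89% higher and 4.32% lower. Without stage 6 replicate 1, higher genes without overlap were 57.0% where both were called, 33.4% for tentacles alone and 25.8% for hypostome alone, against 21.3% of all genes, and lower genes were 54.1% of those below trunk in both. The share of higher genes was thus largest where both were called, with and without this sample. The groups were not matched for the size of the adult difference or for level. Median levels were 14.6 where both were called, 3.9 for tentacles alone and 10.2 for hypostome alone. By the 2-fold classes, hypostome-high genes had a median change of 0.42 and tentacle-high genes of 0.37. The shares therefore do not rank tentacles against hypostome.

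**Figure D4:**
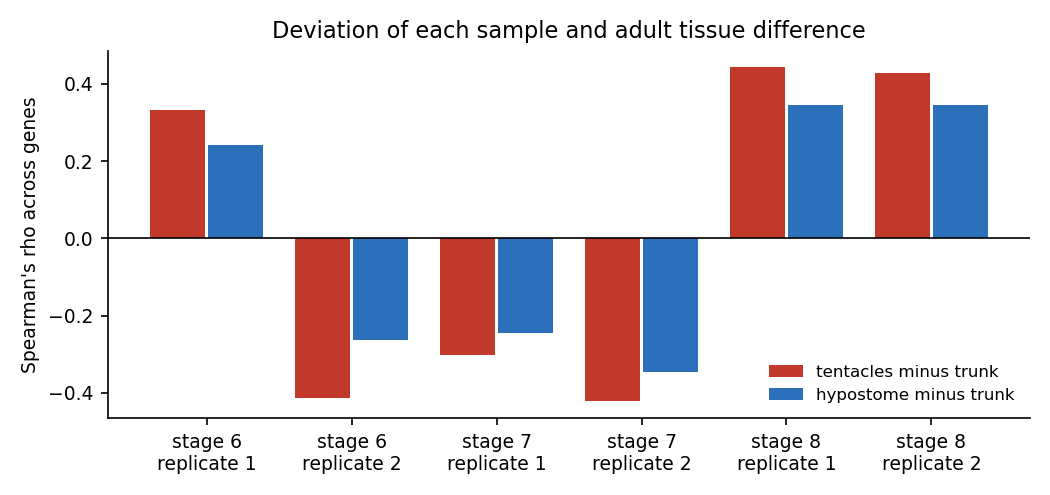
Spearman's rho across genes between the deviation of each of the 6 samples from the gene's mean and the adult difference of tentacles (red) or hypostome (blue) from trunk. Stage 6 replicate 1 is positive like both stage 8 samples, and the other 3 samples of stages 6 and 7 are negative.

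In single samples, the deviation from the mean of the 6 samples correlated with the tentacle difference with rho = 0.442 and 0.428 in the stage 8 samples. In stage 6 replicate 1 it was 0.333, and in stage 6 replicate 2 and the stage 7 samples it was -0.412, -0.301 and -0.422. With the hypostome difference the same values were 0.346 and 0.344 at stage 8, 0.241 in stage 6 replicate 1, and -0.262, -0.246 and -0.347 in the others. The stage 8 samples were the highest in both, and stage 6 replicate 1 was on their side of 0. The reason for its position was not tested.

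Of the 14 genes that fell, 6 (42.9%) were foot-high, against 2.3% of all genes. Another 6 (42.9%) were in no class, against 71%. The other counts on these genes were not taken over all genes, so they describe the 14 only. Their highest adult mean was in the foot for 7, in the budding zone for 5 and in the body column for 2, and in tentacles or hypostome for 0, although this mean was as low as 0.16 for 1 of them. In the hypostome 11 of them had a mean below 1, and 10 were listed at 0 in both samples. In tentacles 8 had a mean below 1. At stage 8, 7 of the 14 were listed at 0 in both samples. Over all genes, 14 were listed at 0 in both stage 8 samples and were at 1 or more in all 4 samples of stages 6 and 7, and 0 showed the reverse. The fallen genes lay at means between 0.825 and 85.2 in stages 6 and 7. They include a pair of consecutive gene models on one scaffold.

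These genes were more even than others before stage 8, and most of them were higher at stage 1. The median SD of log2(value + 1) over the 4 samples of stages 6 and 7 was 0.10 for the 14 genes and 0.29 for the 13222 genes in the same range of level. A low spread favours passing the test, so this is part of how they were found. For 12 of them both stage 1 samples were above all samples of stages 6 and 7. How often this holds over all genes was not counted. At stage 10, replicate 1 was below 0.5 times the lowest value of stages 6 and 7 for 10 of the genes, and replicate 2 for 1. The stage 10 samples therefore differed from each other in these genes, and the fall was not shared by both samples of the later stage. The batches that the authors removed are not named, and their part in these values was not tested.

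Single genes were chosen by rule and not by function. The largest fall on the log2(value + 1) scale was in Sc4wPfr_155.g16881, a foot-high gene with 753.68 and 1139.16 in the adult foot. It stood at 101.35 and 70.51 at stage 6 and at 90.51 and 78.61 at stage 7 and was listed at 0 in both samples of stage 8, so no fold is given (adjusted p = 0.000822). The groups were far apart, but the gene was back at 24.92 and 50.76 at stage 10 and was listed at 0 in adult body column, budding zone and hypostome. It is the gene that passed the threshold in each of the 6 fits that left out 1 sample.

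The next fall among genes with a mean of at least 10 in the higher group, Sc4wPfr_825.g15293, was in a gene of the body column (36.13 and 40.16) and budding zone (66.46 and 47.12) that was listed at 0 in both hypostome samples. Its values were 11.82 and 13.8 at stage 6, 14.25 and 17.71 at stage 7, and 1.1 and 1.63 at stage 8. This is a mean of 14.4 ± 2.45 (SD, n = 4) against 1.37 ± 0.375 (SD, n = 2), and a change of -2.70 ± 0.21 (SE) on the log2(value + 1) scale with an adjusted p = 0.0297. The groups did not overlap. The adjusted p passed the threshold without stage 6 replicate 1 (0.0153) and lay between 0.0827 and 0.188 without any one of the other 5 samples. In regeneration the gene fell from 17 and 21.39 at 0 h to 0 in both samples at 48 h (adjusted p = 0.00167).

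The only gene past the threshold upward was Sc4wPfr_928.g28901, which is named for this reason after its values were seen. It was listed at 0 in all 4 samples of stages 6 and 7 and had 0.5 and 0.55 at stage 8 (adjusted p = 0.0297). It thus met the filter of 2 samples above 0 only through the stage 8 samples, the group in which it is higher. Its adjusted p is therefore not read as support, and without either stage 8 sample it was not fitted. With a minimum of 1 in at least 2 samples, 0 genes were higher. It is hypostome-high, with 2.06 and 1.51 in the adult hypostome. Over the other bud stages its values went from 0 to 4.07 and differed between replicates of a stage. The 4 earlier samples had no spread at all, since all were listed at 0, and the adjusted p was 0.0355 without stage 6 replicate 1 and between 0.138 and 0.2 without any one of the other samples of stages 6 and 7.

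**Figure D5:**
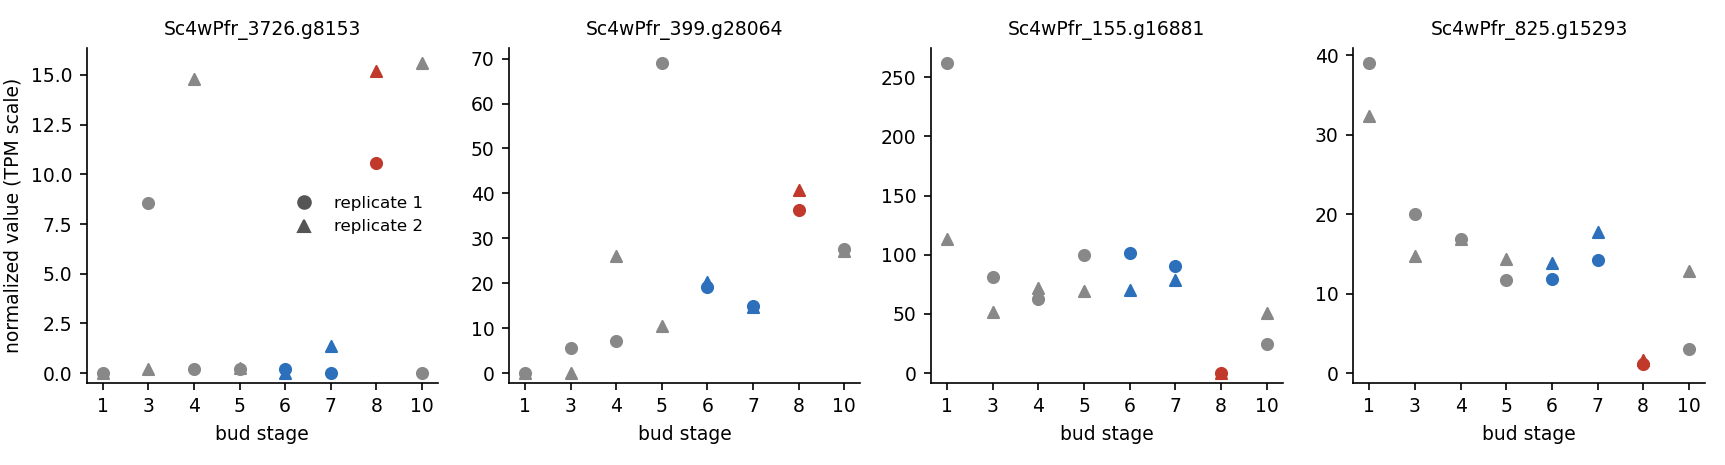
Normalized values on the TPM scale, with a linear axis for each gene, of the 4 genes chosen by rule in all 16 bud samples by stage, for replicate 1 (circles) and replicate 2 (triangles), with stages 6 and 7 in blue and stage 8 in red. Sc4wPfr_3726.g8153 and Sc4wPfr_399.g28064 are higher at stage 8 than at stages 6 and 7, and Sc4wPfr_155.g16881 and Sc4wPfr_825.g15293 are lower.

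No tentacle-high or hypostome-high gene with a mean of at least 10 passed the threshold upward with all 6 samples, and the ones with the smallest unadjusted p are given as a description. For tentacle-high genes this was Sc4wPfr_3726.g8153, with 0.22, 0, 0 and 1.37 at stages 6 and 7 and 10.56 and 15.22 at stage 8. The difference was 3.39 ± 0.40 (SE) on the log2(value + 1) scale (adjusted p = 0.136). It passed the threshold without stage 6 replicate 1 (0.0457) and without stage 7 replicate 2 (0.0324), and not without any one of the other 4 samples (0.322 to 0.434). This gene was also at 8.57 in 1 sample of stage 3, at 14.79 in 1 sample of stage 4 and at 0 and 15.59 at stage 10, so its values did not follow the stages. In adult tentacles it was at 22.99 and 6.17, and in the body column at 1.58 and 5.6. Its class thus rests on tentacle replicate 1, since replicate 2 is not 2-fold above the mean of the body column. This gene met the mean of at least 10 only through the stage 8 samples, the group in which it is higher. For hypostome-high genes it was Sc4wPfr_399.g28064, with 93.81 and 111.6 in the adult hypostome. It had 19.19 and 20.34 at stage 6, 15.02 and 14.76 at stage 7, and 36.34 and 40.65 at stage 8, which is 17.3 ± 2.86 (SD, n = 4) against 38.5 ± 3.05 (SD, n = 2). The difference was 1.12 ± 0.18 (SE), with an adjusted p = 0.266 and 0.0583 without stage 6 replicate 1. Here stage 6 replicate 1 was not apart from the other earlier samples. The gene was listed at 0 in both stage 1 samples, reached 68.98 in 1 sample of stage 5, and rose in regeneration by 2.28 from 0 to 48 h (adjusted p = 0.000427).

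Of the 45 opsin genes that the study described, 2 could be matched to the listed genes by identifier. Opsins are G-protein coupled receptors that sense light in animals, and in *Hydra* an opsin is known to act in the discharge of stinging cells. *HvOpD8* had 0.38 and 0.08 at stage 6, 0 and 0.2 at stage 7, and 0.32 and 0.63 at stage 8, with overlapping groups and a difference of 0.34 ± 0.16 (SE, adjusted p = 0.555). *HvOpD9*, a tentacle-high gene with 2.13 and 2.36 in adult tentacles, had 0.85, 0, 0.38 and 0.73 and then 0.65 and 0.93, also with overlap (0.30 ± 0.26, SE, adjusted p = 0.744). Neither passed the threshold. At stage 10, *HvOpD8* stood at 0.75 and 1.04 and was higher than at stages 1 to 5 (0.71 ± 0.07, SE, adjusted p = 0.00926).

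Further samples of the series, which the stage 8 comparison did not use, show how the same classes behaved elsewhere. Between stages 1 to 5 (8 samples) and stage 10 (2 samples), 305 genes rose (1.75%) and 7 fell (0.0401%). Without stage 10 replicate 2 there were 100 higher genes, and without replicate 1 there were 40 lower ones. Risen genes were 151 of the tentacle-high class (5.86%), 63 of the hypostome-high class (13.4%) and 32 of the head-shared class (10.7%). The shares were larger in the hypostome-high than in the tentacle-high class, and the difference of these shares was not tested. The change to stage 8 correlated across genes with this change with r = 0.679 and rho = 0.605, with no sample in common. Of the 2346 genes that were higher without overlap at stage 8, 117 (4.99%) rose to stage 10 and 0 fell, and none of the 14 fallen genes passed the threshold there, although 13 of them were lower at stage 10.

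In head regeneration from 0 to 48 h, 1701 genes rose (9.84%) and 1913 fell (11.1%). Without any one of the 4 samples at 0 and 48 h these were 744 to 1125 and 510 to 928. Risen genes were 819 of the tentacle-high class (32.3%), 135 of the hypostome-high class (28.8%) and 95 of the head-shared class (31.8%), and 349 of the tentacle-low class fell (32.4%). The correlation with the stage 8 change was lower than for stage 10, with r = 0.342 and rho = 0.325. Of the genes higher without overlap at stage 8, 591 (25.3%) rose in regeneration and 5.40% fell. Of the genes lower without overlap at stage 8, 146 (15.5%) fell in regeneration and 49 (5.20%) rose. The regeneration fit has 14 samples, so its number of calls is not to be compared with that of the buds.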

How the data were processed

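The data are RNA-seq libraries made with a Smart-seq2 protocol from poly-A RNA. According to the labels and methods, the authors trimmed reads with Trimmomatic 0.35, mapped them with Bowtie 1.2 to their transcriptome of the Hydra 2.0 assembly, estimated TPM with RSEM 1.2.31, then used ComBat against batch effects and qsmooth for a smooth quantile normalization. The deposited values were treated as a normalized signal on the scale of TPM. The batches are not named, and read counts and depth were not used here. Where 2 samples share one set of sorted values, p-values may be too small.

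Columns were matched to samples through their names. Genes had to be above 0 in 2 or more samples of a fit and were analysed as log2(value + 1) with limma 3.58.1 in R 4.3.3 (lmFit, eBayes with a trend), two-sided, with Benjamini-Hochberg adjustment over all genes fitted and a threshold of 0.05. The fit of stage 8 had 2 groups of 2 and 4 samples and 4 residual degrees of freedom. The code of this fit was run on simulated data with independent noise around a common mean per gene. That simulation held no sample that stood apart and no shared sorted values, so it does not cover these limits of the data. Stage 10 was compared with the mean of stages 1, 3, 4 and 5. Tissue classes used ratios of means without a pseudocount and no test. The members and classes were chosen with earlier results of these data known.

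The rule for single genes took the matched opsins, the largest rise among tentacle-high and among hypostome-high genes (smallest unadjusted p where none passed), and the 2 largest falls, with a mean of at least 10 in the higher group and no overlap. Of 17438 identifiers, 0 matched the RefSeq annotation of the HydraT2T_AEP assembly, so cell type markers could not be checked by name. Alternatives were a pseudocount of 0.1, a minimum of 1, no filter, other scalings, a replicate block, other fits of the stages, other class rules and leaving out each sample. Figures used matplotlib 3.10.9 in Python 3.11.15.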

Additional observations from a re-analysis of the deposited data

Results flagged for a closer look

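In the group of 4 samples of stages 6 and 7, 19 values were tested for a sample far from the others (Dixon's test, which chance passes in about 1 of 20 groups), and 2 passed. The rank correlation of stage 6 replicate 1 with the difference of tentacles from trunk was 0.333, and the nearest of the other 3 samples was at -0.301. The value of Sc4wPfr_3726.g8153 in stage 7 replicate 2 was 1.37, and the next was 0.22, both far under the 10.56 and 15.22 of stage 8.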

How the results depend on the processing

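Few genes passed the threshold at stage 8 under any setting that kept all 6 samples. With a minimum of 1 in at least 2 samples, with quantile normalization or with a mean per stage, 0 genes were higher. Genes lower were 8 with a mean per stage. The fit of all 16 bud samples gave 2 genes higher and 1 lower. Fits with 1 earlier stage alone as the reference leave out the samples of the other. Stage 6 alone gave 0 higher and 0 lower, and stage 7 alone gave 20 higher and 20 lower. Leaving out one sample at a time gave 0 to 169 genes higher and 1 to 120 lower, with the upper ends without stage 6 replicate 1. The cause of these differences was not tested.

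The median change of tentacle-high genes was 0.50 with a pseudocount of 0.1, 0.49 with the minimum of 1 and 0.26 with classes by limma. For hypostome-high genes it was 0.63 with classes at 4-fold and 0.17 with classes by limma. None of the class medians tried changed its sign. That of tentacle-low genes came near 0, however. It was -0.14 in the main setting, -0.02 with classes at 4-fold and -0.07 without stage 6 replicate 2. Tentacle-high genes higher without overlap were 42.1% with the minimum of 1, 25.3% after quantile normalization, 29.9% after median-ratio scaling, 41.2% at 4-fold and 28.3% with classes by limma. Hypostome-high genes were 17.2%, 18.9%, 29.9% and 19.5% under the last 4 of these, and head-shared genes were 14.1% and 17.4% under the scalings. The share over all genes was 14.7% with the minimum of 1, 8.08% after quantile normalization and 10.4% after median-ratio scaling, so each head class stayed above it. Lower genes under the scalings were 10.03% and 7.27% of all genes and 20.2% and 12.9% of tentacle-low genes, which had 11.8% with classes by limma.

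With one bud, tentacle or hypostome sample left out, higher genes without overlap were 34.3% to 50.5% of tentacle-high, 20.3% to 46.0% of hypostome-high and 22.5% to 51.2% of head-shared genes, and lower genes were 9.68% to 39.2% of tentacle-low genes. Over all genes they were 15.9% to 25.7% higher and 6.50% to 15.3% lower with a bud sample left out. Leaving out an adult sample changes only the classes, so all genes then stay at 13.5% higher and 5.45% lower. The low ends of the class ranges come from such fits. The correlation with the tentacle difference stayed at a rho of 0.479 to 0.568, and with the hypostome difference at 0.380 to 0.433.

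Samples of stages 6, 7 and 8 share replicate numbers only. Deviations of same-numbered samples correlated by 0.361 between stages 6 and 7, 0.0618 between 6 and 8 and 0.00732 between 7 and 8. With the replicate number as a block, 0 genes were higher and 8 lower at stage 8, and 184 were higher and 1 lower at stage 10. No other count of the comparisons moved past 1.5 times under the block.

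Stage 10 had 16 lower genes with a pseudocount of 0.1, and with one of its samples left out 100 to 403 higher and 10 to 40 lower. Regeneration had 744 to 1125 higher and 510 to 928 lower, hypostome against trunk 2333 to 3674 and 1421 to 2051, and stage 7 against stage 6 had 0 higher and 0 to 2 lower. With 2 samples at stage 8 and no read counts, the precision of single genes rests on the spread between few samples.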
